A study of Salmo salar with 8 samples.

Results

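The salmon array carried 309 probes whose target name ends in _AS, out of 55468 probes in all, and each of them had exactly 1 partner probe whose target name is the same without that ending. The members were taken by name and not by signal, and all 309 pairs are counted below. This name group was chosen with earlier results of these data known. In every pair the array's running probe number of the _AS probe was 1 above that of its partner, so the 2 probes were entered side by side in the design. Of the 309 target names, 291 are plain numbers, 14 begin with OM_UG27 and 4 with SS_UG. On the array, 36 _AS probes and 32 partners were spotted 2 times and the rest 1 time.

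The arrays compared whole Atlantic salmon (Salmo salar) eggs, with total RNA of 1 egg on each array. Road salt at 5000 mg/L, present from fertilisation for 24 h, defined the treated group (salt eggs 1, 3, 5 and 6), and water of the lake Maridalsvannet over the same time defined the control group (control eggs 2, 3, 4 and 5). The egg numbers are those of the labels, which name the tissue as embryo and also carry the word Eyed, so the stage of collection is not settled by them. Nothing in the labels says whether eggs shared parents or a vessel, so the p-values measure the spread between these eggs.

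An antisense transcript is an RNA copied from the strand opposite to that of a known transcript, and it can overlap the known transcript in part or in full. In the labelling used here, RNA is primed at its poly(A) tail and copied into dyed complementary RNA, which binds to probes of 1 strand, so a probe and its reverse complement read RNA of opposite strands. Array designers place probes on both strands where the direction of a target sequence is uncertain, as it often is for expressed sequence tags, or where antisense RNA is of interest. The labels do not say which of these applied. The ending _AS is read here as antisense, probe sequences were not used here, and the strand of each probe was not checked. The target names match no entry of the salmon gene table used here, so no gene, function or genome position is given for a pair, and the labelled tissue was not checked against marker genes.

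The _AS probes were detected more often than their partners. A probe was called well above background on an array by the scanner software's own flag, which a probe with 2 spots had to carry on at least 1 of them, and 165 of 309 _AS probes (53.4%) carried the flag on all 8 arrays, against 111 of 309 partners (35.9%) and 27486 of all 55468 probes (49.6%). At the other end, 73 _AS probes (23.6%) and 118 partners (38.2%) were well above background on none of the arrays, as were 28.8% of all probes. The share for _AS probes thus lay above that of the whole array and the share for partners below it. These are counts over the members and carry no test.

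By the 8 arrays together, the pairs fell into 4 classes. Both probes were well above background in 59 pairs (19.1%), only the _AS probe in 106 (34.3%), only the partner in 52 (16.8%) and neither in 92 (29.8%). Of the 158 pairs in which exactly 1 probe was well above background on all arrays, the _AS probe was that probe in 67.1%. Among the 106 pairs of the _AS class the partner was below this mark on every array in 66 and reached it on 1 to 7 arrays in 40. Among the 52 pairs of the partner class the _AS probe was below the mark on every array in 22 and reached it on 1 to 7 arrays in 30. In 31 of the 92 pairs with neither, no probe reached it on any array.

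The same asymmetry stood in every egg. Pairs in which only the _AS probe was well above background averaged 100.5 ± 4.65 in salt eggs and 101 ± 2.83 in control eggs (SD, n = 4 each). They numbered 99, 100 and 96 in salt eggs 1, 5 and 6, with salt egg 3 the highest of all, and 101, 97, 103 and 103 in control eggs 2, 3, 4 and 5. Pairs with only the partner numbered 52, 49, 49 and 50 in the salt eggs and 49, 49, 50 and 50 in the control eggs. The lowest count of the first kind, 96 in salt egg 6, was thus above the highest of the second, 52 in salt egg 1, and salt and control eggs overlapped in both.

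The number of pairs with both probes detected varied more between eggs. It was 101, 81, 109 and 122 in salt eggs 1, 3, 5 and 6, and 97, 109, 98 and 88 in control eggs 2, 3, 4 and 5. Single _AS probes well above background numbered 200, 188, 209 and 218 in the salt eggs (204 ± 12.8, SD, n = 4) and 198, 206, 201 and 191 in the control eggs (199 ± 6.27, SD, n = 4). Partners numbered 153, 130, 158 and 172 in the salt eggs (153 ± 17.5, SD, n = 4) and 146, 158, 148 and 138 in the control eggs (148 ± 8.23, SD, n = 4). Salt egg 6 was highest and salt egg 3 lowest in each of these 3 counts, and the groups overlapped. The share of all probes well above background was likewise highest in salt egg 6 (65.6%) and lowest in salt egg 3 (55.5%), and its part in these counts was not tested.

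The smaller name classes held few pairs, and their counts are given as they stand. None of the 14 OM_UG27 pairs had both probes well above background on all arrays, while 3 had only the _AS probe, 4 only the partner and 7 neither. The 4 SS_UG pairs stood 1 in each class. The 291 numbered pairs held 58 pairs with both, 102 with only the _AS probe, 47 with only the partner and 84 with neither. Of the 36 _AS probes spotted 2 times, 17 (47.2%) were in the class with only the _AS probe and 6 (16.7%) in the class with only the partner. Of the 273 spotted 1 time, 89 (32.6%) and 46 (16.8%) were. A probe with 2 spots needed the flag on only 1 of them, so it was counted more easily by rule. With the flag required on every spot, the classes over all 309 pairs changed little. They were then 55 with both, 109 with only the _AS probe, 52 with only the partner and 93 with neither, against 59, 106, 52 and 92.

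Several _AS probes were bright in all eggs while their partner stayed near the floor of the array. Levels are given as log2 signal relative to the array's 75th percentile, and the 6 pairs with the highest mean _AS level in this class were taken by rule. The _AS probe 5622215_AS read 7.42, 7.52, 7.39 and 7.64 in salt eggs 1, 3, 5 and 6, and 7.49, 7.57, 8.18 and 8.02 in control eggs 2, 3, 4 and 5. Its partner 5622215 read between -6.21 and -4.45 in the salt eggs and between -6.02 and -3.99 in the control eggs, and was well above background on none of the 8 arrays. The groups overlapped for both probes.

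The contrast in detection was as complete in the next 2 pairs. The probe 5649409_AS read 6.54, 6.59, 6.55 and 6.48 in salt eggs 1, 3, 5 and 6, and 6.66, 6.60, 6.93 and 6.98 in control eggs 2, 3, 4 and 5, while 5649409 was well above background on none of the arrays. The probe 5660394_AS read 5.83, 5.98, 5.69 and 5.70 in the salt eggs and 6.38, 5.97, 5.56 and 5.84 in the control eggs, again with a partner below the mark on all 8 arrays. Salt and control eggs overlapped for 5660394_AS and lay apart, by a narrow margin, for 5649409_AS, whose difference of -0.25 (SE 0.16, adjusted p = 0.468 in limma) missed the threshold.

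The remaining 3 were 5632450_AS, 5650278_AS and 5612774_AS. The first read 6.30, 6.01, 5.59 and 5.88 in salt eggs 1, 3, 5 and 6 and 4.60, 5.76, 5.84 and 5.69 in control eggs 2, 3, 4 and 5, so the groups overlapped and control egg 2 was lowest. Its partner 5632450 was well above background in 3 salt eggs and no control egg, at -3.26, -3.49, -3.62 and -3.93 in the salt eggs and -5.78, -4.43, -4.69 and -4.60 in the control eggs. The groups did not overlap, and that partner was not among the tested probes. Levels of 5650278_AS lay between 4.46 and 4.60 in the salt eggs and between 3.67 and 4.96 in the control eggs, with a partner that was never well above background, and the groups overlapped. Levels of 5612774_AS lay between 4.26 and 4.47 in the salt eggs and between 3.82 and 4.65 in the control eggs, with a partner that reached the mark in 1 egg of each group. Over the whole class of 106, the mean _AS level over the 8 eggs ran from -2.90 to 7.66 with a median of 0.30.

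The reverse pattern also occurred. The partner 5423765 read 6.69, 7.02, 6.99 and 6.66 in salt eggs 1, 3, 5 and 6 and 6.16, 6.92, 7.23 and 6.92 in control eggs 2, 3, 4 and 5, while 5423765_AS was well above background on none of the 8 arrays. For 5638266 and 5679811 the _AS probe was likewise below the mark on all arrays. Their partner levels lay between 3.44 and 3.69 (5638266) and between 3.38 and 3.87 (5679811) in the salt eggs, against 2.61 to 3.47 and 3.41 to 3.96 in the control eggs, and the groups overlapped. In the class of 52 pairs the mean partner level ran from -2.75 to 6.82 with a median of -0.63.

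The partner 5463108 was the most uneven of the 4 probes chosen for brightness in that class. It read 6.32, 8.59, 8.02 and 7.08 in salt eggs 1, 3, 5 and 6, and 8.46, 7.84, 2.07 and 2.61 in control eggs 2, 3, 4 and 5. Control eggs 4 and 5 lay far below the other 6 eggs, and the groups overlapped. They shared slide 2 with salt eggs 5 and 6, which read 8.02 and 7.08. The difference of 2.26 (SE 1.39) missed the threshold (adjusted p = 0.466 in limma). Its _AS probe was well above background in salt egg 1 alone.

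The detection class differed between the groups in 37 of the 309 pairs (12.0%), a probe being counted in a group when all 4 arrays of that group carried the flag for it. Taken singly, 24 of 309 _AS probes (7.77%) and 16 of 309 partners (5.18%) were counted in 1 group alone, against 3454 of all 55468 probes (6.23%), so the members' shares lay near that of the whole array. Among the 37 pairs, 7 had only the _AS probe in salt eggs and neither in control eggs, and 4 pairs had neither in salt eggs and only the _AS probe in control eggs. In 6 pairs both probes were counted in salt eggs and only the partner in control eggs, and in 4 pairs only the partner in salt eggs and both in control eggs. Pairs with both in salt eggs and only the _AS probe in control eggs numbered 2, and pairs with only the _AS probe in salt eggs and both in control eggs numbered 5. Switches thus ran in both directions between the groups. A complete switch means a probe on all 4 arrays of 1 group and on none of the other. It was seen for 2 of 309 _AS probes, both detected in salt eggs, and for none of the 309 partners. Of all 55468 probes, 59 were detected in salt eggs alone and 37 in control eggs alone. The _AS share was above that of the whole array but rests on 2 probes.

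Levels were compared between salt eggs and control eggs with limma, over the 30940 probes that carried the flag on every array of the salt group, of the control group or of both. Of the members, 189 _AS probes and 127 partners entered this test, and both probes of a pair did so in 79 pairs. In whole eggs, fewer cells of a type and less RNA per cell cannot be told apart. The other 120 _AS probes and 182 partners were not tested. A probe that passed this filter only through its brighter group is more apt to differ, so the counts below describe the tested members and not all 309 pairs.

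After adjustment over all tested probes, 1 of 189 _AS probes (0.529%) and 1 of 127 partners (0.787%) differed at an adjusted p under 0.05, and both were higher in salt eggs. Over all tested probes, 285 (0.921%) did so, of which 232 (0.75%) were higher and 53 (0.171%) lower in salt eggs. The share among the members was close to this background. At an unadjusted p under 0.05, 20 _AS probes were higher and 12 lower, 32 in all (16.9%), and 18 partners were higher and 15 lower, 33 in all (26.0%), against 16.4% of all tested probes, of which 8.08% were higher and 8.35% lower. Salt and control eggs did not overlap for 20 _AS probes (10.6%), 15 higher and 5 lower, and for 17 partners (13.4%), 11 higher and 6 lower, against 9.89% of all tested probes, of which 5.13% were higher and 4.75% lower.

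The median differences of the members lay near 0. The median difference was 0.005 over the 189 _AS probes, of which 97 were on the higher side in salt eggs, and 0.006 over the 127 partners, of which 65 were. Over all 30940 tested probes the median difference was 0.0006. The median size of the difference, without its sign, was 0.22 for _AS probes, 0.31 for partners and 0.23 for all tested probes. Control eggs varied more than salt eggs at the median: the median SD was 0.20 in salt eggs and 0.36 in control eggs for _AS probes, 0.28 in salt eggs and 0.39 in control eggs for partners, and 0.21 in salt eggs and 0.37 in control eggs for all tested probes. In the class with only the _AS probe detected, 51 of the 106 _AS probes lay on the higher side in salt eggs, 10 had an unadjusted p under 0.05 and 0 passed after adjustment in limma. In the class with only the partner, 29 of the 52 partners lay on the higher side, 9 had an unadjusted p under 0.05 and 1 passed. Where both were detected, 30 of the 59 _AS probes and 28 of the 59 partners lay on the higher side, and 14 and 13 had an unadjusted p under 0.05. Of the 30940 tested probes, 16.4% had such a p in limma. That background also includes probes detected on every array of only 1 group, while the probes of these classes were detected in every egg. The share was below it in the class with only the _AS probe and near it in the class with only the partner. It was above it where both were detected. These shares were not compared by a test.

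The _AS probe that passed was 5435476_AS, one of the 2 complete switches. It read -1.53, -2.63, -2.41 and -2.35 in salt eggs 1, 3, 5 and 6, and -3.35, -4.85, -5.72 and -4.60 in control eggs 2, 3, 4 and 5. All 4 salt eggs lay above all control eggs, salt egg 1 was the highest and control egg 2 the nearest control. It was well above background in 4 salt eggs and in no control egg, so it entered the test through its salt arrays alone. Its difference is a bound: the mean over the salt eggs was at least 3.79-fold that over the control eggs. Single eggs lay closer, with salt egg 3 at -2.63 and control egg 2 at -3.35. The adjusted p of 0.0469 in limma rests on control values at background. With the test limited to probes detected on all 8 arrays 0 of 165 _AS probes passed. That filter left 5435476_AS out, so it could not pass there. The call was lost in 11 of 21 alternatives: without any single salt egg, without control egg 3 (adjusted p = 0.0823), 5 (0.126) or 4 and 5 together (0.101), with no filter on dim probes (0.0803), with the replicate number as a block (0.118), within slide 1 (0.250) and with the normexp background correction (0.553). The normexp correction adds an offset to the signal, which shrinks differences of dim probes by construction, here and below. The partner 5435476 was well above background on none of the 8 arrays.

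The partner that passed was OM_UG27_56190554. It read -0.11, -0.17, -0.15 and -0.65 in salt eggs 1, 3, 5 and 6, and -1.33, -1.21, -1.49 and -1.89 in control eggs 2, 3, 4 and 5. The groups lay apart, and all 8 eggs were well above background. The mean was -0.27 ± 0.25 in salt eggs and -1.48 ± 0.30 in control eggs (SD, n = 4 each), a difference of 1.21 (SE 0.21, adjusted p = 0.0329 in limma). The call was lost in 12 of 22 alternatives: without any single salt egg, without control egg 5 (adjusted p = 0.0900) or 4 and 5 together (0.0748), with no scaling (0.0734), with no filter on dim probes (0.0731), with the replicate number as a block (0.330), within slide 1 (0.169) or slide 2 (0.163), and with the normexp background correction, where the difference was 0.64 (0.0848). Its _AS probe read -2.89, -5.02, -3.86 and -2.71 in the salt eggs, where 3 eggs were well above background, and -5.71, -6.20, -4.74 and -5.06 in the control eggs, where none was. That _AS probe was not tested, and salt egg 3 lay within the range of the control eggs.

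The 4 next largest differences among _AS probes whose groups did not overlap were all positive and missed the threshold. The probe 5440613_AS read -1.46, -2.23, -2.07 and -1.80 in salt eggs 1, 3, 5 and 6 and -2.65, -4.11, -4.82 and -4.44 in control eggs 2, 3, 4 and 5, a difference of 2.11 (SE 0.42, adjusted p = 0.0546 in limma). It was well above background in only 1 control egg, so it entered the test through its salt arrays alone. Its adjusted p thus rests mostly on control values not well above background. Its difference was 0.35 with normexp (adjusted p = 0.475), whose added offset shrinks the differences of dim probes by construction. It passed the threshold in 8 of 21 alternatives, which draw on the same dim control values, so this count is no separate support. Its partner 5440613 was well above background in all eggs and differed by 0.40 (SE 0.34, adjusted p = 0.609 in limma).

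The second complete switch was 5657879_AS, which read -1.36, -3.21, -3.45 and -2.46 in salt eggs 1, 3, 5 and 6 and -3.80, -4.65, -4.80 and -5.66 in control eggs 2, 3, 4 and 5. The mean over the salt eggs was at least 3.13-fold that over the control eggs. Single eggs lay closer, with salt egg 5 at -3.45 and control egg 2 at -3.80. This probe too entered the test through its salt arrays alone, and its adjusted p of 0.0873 in limma rests on control values at background. Its partner was never well above background. The probes 5645616_AS and 5460023_AS differed by 1.62 (SE 0.34, adjusted p = 0.0663 in limma) and 1.46 (SE 0.37, adjusted p = 0.104). With normexp these differences were 0.27 and 0.54. The probe 5645616_AS was well above background in only 1 control egg, so it also entered the test through its salt arrays alone. Its adjusted p likewise rests mostly on control values not well above background. The probe 5460023_AS was well above background in all control eggs. In these 4 _AS probes and in 5435476_AS, salt egg 1 was the highest egg (tied with salt egg 6 in 5645616_AS at this rounding) and control egg 2 the highest control egg.

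Lower levels in salt eggs without overlap were seen for 5 tested _AS probes, none past the threshold. The largest was 5616273_AS, which read -3.56, -3.29, -3.0 and -4.15 in salt eggs 1, 3, 5 and 6 and -1.77, -2.31, -1.58 and -2.73 in control eggs 2, 3, 4 and 5, a difference of -1.40 (SE 0.31, adjusted p = 0.077 in limma). It was well above background in only 1 salt egg and in all control eggs, so it entered the test through its control arrays alone. Its adjusted p rests mostly on salt values not well above background. Its difference was -0.43 with normexp and -0.63 with the replicate number as a block. The others were 5673789_AS, 5652630_AS, 5611865_AS and 5649409_AS, with differences of -0.55, -0.48, -0.38 and -0.25. All 4 were well above background in all eggs, and their adjusted p-values in limma lay between 0.205 and 0.468.

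Among partners without overlap the largest positive differences were those of 5628312, 5641253 and 5662907, none past the threshold. The probe 5628312 read -1.91, -2.52, -2.82 and -1.85 in salt eggs 1, 3, 5 and 6 and -3.36, -3.60, -5.52 and -5.37 in control eggs 2, 3, 4 and 5, a difference of 2.18 (SE 0.50, adjusted p = 0.083 in limma). Control eggs 4 and 5 were not well above background there, so the probe entered the test through its salt arrays. The difference was 1.20 without control eggs 4 and 5 and 0.30 with normexp. The differences of 5641253 and 5662907 were 1.40 (SE 0.32, adjusted p = 0.0801 in limma) and 1.27 (SE 0.30, adjusted p = 0.0863), or 0.31 and 0.40 with normexp. Their _AS probes differed by -0.27 (5641253_AS, SE 0.18, adjusted p = 0.504) and 0.49 (5662907_AS, SE 0.45, adjusted p = 0.648). The probes 5641253 and 5662907_AS were each well above background in 3 control eggs, so they too entered the test through their salt arrays alone.

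The largest negative differences among these partners were smaller. They were -0.74 for 5437996 (SE 0.20, adjusted p = 0.122 in limma), -0.52 for 5636132 (SE 0.17, adjusted p = 0.189) and -0.46 for 5659063 (SE 0.18, adjusted p = 0.24). The _AS probe 5437996_AS was well above background on none of the arrays. The probes 5636132_AS and 5659063_AS were so in all 8 eggs and differed by -0.66 (SE 0.26, adjusted p = 0.242) and 0.21 (SE 0.26, adjusted p = 0.742).

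The 59 pairs with both probes detected in every egg allowed the probes to be followed together. For each pair the log2 difference between the _AS probe and its partner was taken within each array. Because different probes bind with different strength, only the movement of this difference between eggs is described, not its level. Salt and control eggs did not overlap in it for 8 of 59 pairs (13.6%), and for 0 of 25 pairs of probes that share 1 target name and were both detected in every egg. Its median change between the groups, without sign, was 0.40 for the 59 pairs and 0.05 for the 25 pairs of shared name. Probes of 1 target name are meant to read the same target, so little movement is built into that comparison. The levels of single probes did not overlap between the groups for 9.89% of all tested probes. Whether the change of any single pair was larger than the spread between eggs was not tested.

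Among the pairs without overlap, the largest increase of the within-array difference was that of 5460023. The probe 5460023_AS read -0.30, -1.49, -1.53 and -0.72 in salt eggs 1, 3, 5 and 6 and -1.60, -2.58, -3.08 and -2.61 in control eggs 2, 3, 4 and 5. The partner 5460023 read -0.55, 0.09, -0.22 and -0.55 in the salt eggs and 0.42, -0.14, -0.65 and 0.16 in the control eggs. The _AS probe was higher in every salt egg than in any control egg while the partner overlapped, and the within-array difference was higher in salt eggs by 1.71, or by 0.72 with the normexp background correction.

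In 5671022 both probes were bright and moved apart. The probe 5671022_AS read 6.61, 6.27, 6.37 and 6.27 in salt eggs 1, 3, 5 and 6 and 5.29, 5.05, 6.05 and 6.24 in control eggs 2, 3, 4 and 5, a difference of 0.72 (SE 0.27, adjusted p = 0.233 in limma). The partner 5671022 read 10.25, 10.75, 10.08 and 10.11 in the salt eggs and 11.32, 10.49, 10.71 and 11.41 in the control eggs, a difference of -0.68 (SE 0.26, adjusted p = 0.228). The groups did not overlap for the _AS probe and did for the partner. The within-array difference was higher in salt eggs by 1.40, and by 0.83 with quantile normalisation. The third largest increase, 1.34 for 5636895, joined a dim _AS probe (-1.65 ± 0.50 in salt eggs and -2.63 ± 0.25 in control eggs, SD, n = 4 each) to a bright partner (5.58 ± 0.07 in salt eggs and 5.94 ± 0.43 in control eggs), and was 0.65 with the normexp correction.

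The within-array difference was lower in salt eggs without overlap in 2 of the 59 pairs. In 5615350 the _AS probe read 0.37, -0.08, -0.66 and 0.72 in salt eggs 1, 3, 5 and 6 and 1.60, 0.95, 0.85 and 0.26 in control eggs 2, 3, 4 and 5, and the partner 0.36, -0.34, -0.52 and -0.06 in the salt eggs and -1.01, -0.89, -0.62 and -0.73 in the control eggs. The groups overlapped for the _AS probe and not for the partner, and the within-array difference changed by -1.50. In 5660810 it changed by -0.47, with _AS levels that overlapped and a partner difference of 0.47 (SE 0.17, adjusted p = 0.223 in limma).

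Across the 8 eggs, an _AS probe and its partner mostly did not run together. Over the 59 pairs the correlation of the 2 probes across eggs had a median Pearson r of -0.08, with quartiles of -0.39 and 0.52, and a median Spearman rho of 0.00. It was below 0 in 30 of the 59 pairs. Over the 25 pairs of probes that share 1 target name the median r was 0.94, with quartiles of 0.83 and 0.97, and the median rho 0.86. The points of each r are 8 eggs that share array, scaling and brightness between the 2 probes, and r is given as a description. Salt and control eggs are pooled in each r, so a difference between the groups enters it. Without any scaling between arrays the median r of the 59 pairs was 0.43 and that of the 25 pairs 0.98.

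A small set of pairs ran alike. The correlation exceeded 0.9 in 5 of the 59 pairs, and in 6 pairs the SD of the within-array difference over the eggs was at or below 0.121, the median of pairs with 1 name. In 5651682 the _AS probe read 7.61, 7.69, 7.87 and 7.78 in salt eggs 1, 3, 5 and 6 and 7.04, 7.42, 8.10 and 7.55 in control eggs 2, 3, 4 and 5. The partner read 7.58, 7.72, 7.83 and 7.73 in the salt eggs and 7.04, 7.40, 8.04 and 7.53 in the control eggs. The 2 probes followed each other egg by egg (r = 0.997, rho = 1.0, n = 8; r = 0.989 without control eggs 2 and 4, the 2 eggs farthest from the median).

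The probes of 5645516 and 5649797 also followed each other, and these 3 pairs had the highest r. The probe 5645516_AS read 1.16, 1.21, 1.71 and 1.33 in salt eggs 1, 3, 5 and 6 and 0.72, 0.92, 0.19 and 1.25 in control eggs 2, 3, 4 and 5, and its partner 1.07, 1.06, 1.76 and 1.12 in the salt eggs and 0.59, 0.80, -0.14 and 1.17 in the control eggs. Salt egg 5 was highest and control egg 4 lowest for both probes. In 5645516, r was 0.993 and rho 0.952 (n = 8, and r = 0.977 without control egg 4 and salt egg 5), and in 5649797, r was 0.987 and rho 1.0 (n = 8, and r = 0.969 without control eggs 4 and 5). The other pairs over 0.9, named after their values were seen, were 5631137 (r = 0.967) and 5644893 (r = 0.928). In these 5 pairs the SD of the within-array difference lay between 0.028 and 0.107 on the log2 scale.

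At the other end, the lowest r were -0.86 for 5624193, -0.86 for 5690936 and -0.74 for SS_UG_50681850, with rho of -0.83, -0.79 and -0.81 (n = 8 each). The probe 5624193_AS read 4.40, 4.47, 4.62 and 4.63 in salt eggs 1, 3, 5 and 6 and 4.53, 4.79, 5.03 and 5.16 in control eggs 2, 3, 4 and 5. Its partner 5624193 read 0.71, 0.21, 0.14 and 0.46 in the salt eggs and 0.09, 0.02, -0.12 and -0.54 in the control eggs. The partner groups lay apart and the _AS groups overlapped. Control eggs 4 and 5 were highest for the _AS probe and lowest for the partner, and without them r was -0.62.

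In 5690936 the size of the Pearson r rested largely on 2 eggs, while rho over all 8 eggs was -0.79. The probe 5690936_AS read 2.10, 2.72, 1.44 and 2.31 in salt eggs 1, 3, 5 and 6 and 6.34, 4.24, 1.62 and 3.59 in control eggs 2, 3, 4 and 5, and its partner 5690936 lay between -0.90 and -0.08 in all eggs. Without control eggs 2 and 3 the r was -0.30. In SS_UG_50681850 the _AS probe read -1.45, -2.10, -1.85 and -1.35 in the salt eggs and -2.41, -2.31, -2.36 and -2.77 in the control eggs, and the partner 5.47, 5.51, 5.02 and 5.20 in the salt eggs and 5.63, 5.45, 5.96 and 6.02 in the control eggs. The _AS groups lay apart and the partner groups overlapped. This pair was 1 of the 8 whose within-array difference did not overlap between the groups, with a change of 1.24. Without salt eggs 1 and 6 the r was -0.88.

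The 4 _AS probes of largest SD over the 8 eggs, among those detected in all of them, were 5682600_AS, 5690936_AS, 5630130_AS and 5460023_AS, and the groups overlapped for all but the last. The probe 5682600_AS read 3.07, 5.88, 5.98 and 3.51 in salt eggs 1, 3, 5 and 6 and 5.37, 4.64, 1.98 and 2.14 in control eggs 2, 3, 4 and 5, while its partner was well above background in no egg. Salt eggs 1 and 6 and control eggs 4 and 5 were the low ones, on both slides, and the difference of 1.08 had an SE of 0.92 (limma adjusted p = 0.613). The probe 5630130_AS read -2.77, -0.84, -0.48 and -2.59 in the salt eggs and -0.69, -1.49, -2.41 and -2.75 in the control eggs, with the same 4 eggs low. Its partner 5630130 read between 2.72 and 3.10 in the salt eggs and 3.22, 2.94, 2.10 and 2.19 in control eggs 2, 3, 4 and 5, so that only control eggs 4 and 5 were low.

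The brightest pairs detected by both probes, taken by the _AS level, were 5636316, 5649797, 5651682 and 5658829. The probe 5636316_AS read 8.92, 9.33, 8.35 and 8.50 in salt eggs 1, 3, 5 and 6 and 8.89, 8.67, 9.24 and 9.23 in control eggs 2, 3, 4 and 5, with its partner at 0.93, 1.13, 0.94 and 0.97 in the salt eggs and 1.0, 0.83, 1.62 and 1.76 in the control eggs. The probe 5658829_AS lay between 7.64 and 8.13 in the salt eggs and between 7.45 and 8.50 in the control eggs, and its partner between 2.10 and 3.62 in the salt eggs and between 2.38 and 4.57 in the control eggs. None of these 8 probes differed between the groups at the threshold (limma adjusted p of 0.549 to 0.931), and the groups overlapped for each.

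The 75th percentile of an array's signal, on which all levels are set, ran from 103 to 167 intensity units in salt eggs and from 87.6 to 163 in control eggs. Each of 2 slides held 2 salt and 2 control eggs. On slide 1 (salt eggs 1 and 3, control eggs 2 and 3) OM_UG27_56190554 differed by 1.13, and on slide 2 by 1.29. In limma's test of slide by group, 0 of the 316 tested members passed at an adjusted p under 0.05. In that test 29 members (9.18%) had an unadjusted p under 0.05, against 8.40% of all tested probes. They were 12 of 189 _AS probes (6.35%) and 17 of 127 partners (13.4%), so the share was below that of all tested probes for _AS probes and above it for partners.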

How the data were processed

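The members and the rules for naming pairs were chosen with earlier results of these data known. Spot intensity was read from the deposited Agilent Feature Extraction files, made with version 10.7 per the submitters' processing notes. The processed intensity is background-subtracted and detrended by the authors' scanner software and not scaled between arrays, per the file headers. The log2 values of the series' value table, deposited by the authors with scaling and centring not given in the sources used here, served only as an alternative.

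Of 62976 spots per array, control spots were left out, as were 198 outlier-flagged spots over 8 arrays; 0 probe spots were saturated. Spots of a probe were averaged, log2 was taken and the array's 75th percentile subtracted. The comparison of salt with control eggs used limma 3.58.1 under R 4.3.3 (lmFit, eBayes, two-sided, Benjamini-Hochberg over 30940 probes, threshold 0.05), tested on simulated data. Folds given as "at least" set the brighter mean against, per array, the lowest signal well above background or, where higher, the signal of the dim probe itself. Named were members past the threshold, the largest differences without overlap, the highest levels in each class, the largest spread, the largest within-array changes and the extremes of r. Alternatives were normexp with an offset of 50 on the median signal (the files used here hold no mean signal column), other scalings, filters and variance models, slide, the value table and leaving out eggs. The number of arrays limits the precision.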

Additional observations from a re-analysis of the deposited data

Results flagged for a closer look

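Levels of each named probe, in each group where it was detected on all 4 arrays, and the counts per egg were checked by Dixon's test for 1 egg standing apart within its group of 4. Of 126 such sets, 6 held one, where chance gives about 1 in 20. Control egg 2 stood apart for 5632450_AS at 4.60, while the other control eggs read 5.69 to 5.84. OM_UG27_56190554 read -0.65 in salt egg 6, while the others read -0.17 to -0.11, and 5638266 read 3.69 in salt egg 1, against 3.44 to 3.45. The level of 5645516 was 1.76 in salt egg 5, while the others read 1.06 to 1.12, and its _AS probe was also highest in that egg. Salt egg 3 stood apart for 5636895 at 5.69, against 5.54 to 5.56, and for 5679811 at 3.87, against 3.38 to 3.45. None of the counts of detected probes or pairs per egg met this criterion.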

How the results depend on the processing

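The called _AS probe was not well above background in any control egg; the called partner was so in all 8 eggs. Counts of called probes, 1 _AS probe and 1 partner, moved with most settings. Over all tested probes 285 were called. The counts were 0 and 0 with normexp (108 over all probes), within slide 1 (3) and with the replicate number as a block (replicate block, 0), 5 and 4 with median centring (471), 4 and 2 with no scaling (428), 3 and 2 with slide as a block (317), 2 and 3 within slide 2 (425), and 32 and 33 at unadjusted p under 0.05 (5084). With no scaling, within slide 2 and with no filter on dim probes, where 1 partner was called, the partners called did not include OM_UG27_56190554. For _AS probes alone they moved to 3 with quantile normalisation (364), the value table (333) and a trended and robust variance (249), and to 0 with no filter on dim probes (167) and with probes detected on all arrays (71); for partners, to 0 without control eggs 4 and 5 (262; chosen after seeing the data). The filter for probes detected on all arrays left out 5435476_AS, so its call could not appear there. Leaving out each egg gave 0 to 6 _AS probes and 0 to 3 partners, with 1 to 609 over all probes. The cause was not tested. With the replicate block 24 _AS probes (12.7%) and 18 partners (14.2%) had an unadjusted p under 0.05 in limma, against 8.24% of all tested probes. The groups share only numbers 3 and 5, so the group difference in that fit rests on those eggs alone and the fit has little power. Deviations of same-numbered eggs correlated at 0.223 and -0.106, so no pairing was taken.

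The counts with only the _AS probe and only the partner stayed within 1.5 times under every alternative, at 87 to 109 and 42 to 53. Pairs with both and with neither, 59 and 92, were 117 and 48 with the looser flag for positive and significant signal, 103 and 53 for at least 4 of 8 arrays, and 149 and 31 for at least 1 array, which admit more probes by construction. Leaving out each egg gave 59 to 63 with both, 105 to 109 with only the _AS probe, 50 to 53 with only the partner and 88 to 92 with neither. None of the 17 followed differences reversed. Salt and control eggs did not overlap for any of these 17 probes. Leaving out eggs, fitting within a slide or using the replicate block therefore could not reverse their differences. Those of dim probes were smaller with normexp, at 0.23 for 5657879_AS and 0.32 for 5435476_AS. The offset added in normexp shrinks such differences by construction. The median r of the 59 pairs lay between -0.04 and 0.08 without each egg in turn. The count of 8 pairs whose within-array difference did not overlap was 13 without control egg 4, 13 without salt egg 5 and 23 without control eggs 4 and 5; fewer eggs overlap less by construction.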
